A study of Mus musculus with 3 samples.

Results

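Axon guidance genes encode the extracellular cues that steer growing axons and migrating neurons, and the receptors that read those cues. The genes described here were chosen by name: semaphorins (Sema), plexins (Plxn), neuropilins (Nrp), ephrins (Efna, Efnb), Eph receptors (Epha, Ephb), Slits, Robo receptors, netrins (Ntn, Ntng) and the netrin receptors Dcc, Neo1 and Unc5a to Unc5d, wherever a peak list named the gene as the one with the nearest transcription start site. That rule found 41 genes of the 9838 genes given a peak in either list. Of these, Seh1 peaks named 37 and IgG peaks 24. Since a peak was needed to be counted, having a peak is no finding about the 41. The same name patterns matched 72 protein-coding genes in the RefSeq gene table, and these 72, with or without a peak, are the denominator below. The 41st gene, Plxna4os1, is an antisense RNA gene within Plxna4.

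The data were chromatin immunoprecipitation sequencing of wild-type mouse neural stem cells, cultured from cortex at postnatal day 0 (P0, birth) on laminin and poly-L-ornithine in growth medium with EGF and bFGF. There were 3 libraries, 1 each of a Seh1 immunoprecipitation, an IgG immunoprecipitation (control antibody with no chromatin target) and input chromatin, all from the same genotype and medium, so the design compares antibodies and not treatments or genotypes. Seh1 is a nucleoporin of the Y-shaped complex of the nuclear pore, and the study's title concerns its control of p21 in neocortical development. A peak list was analysed for Seh1 and for IgG, with 16113 and 5314 peaks. For the input library no peak list of its own was available here. Peak lists hold no expression values, so the labelled cell type could not be checked against marker genes. With 1 library per group there is no replicate error and no test between groups. Intervals in brackets are 95% exact binomial (Clopper-Pearson) intervals, which cover counting error only, and neighbouring peaks are not independent. Where a count was 0, the upper limit given in the text is that of 3 counts, slightly below the upper end of the exact interval. The deposited score was 0 for every peak, so no peak has a height, and sequencing depth is unknown. Median width was 266 bp in each list.

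Ligands and receptors of this system pair by family. Semaphorins signal through plexins, with neuropilins as co-receptors of the secreted class. Ephrins bind Eph receptor tyrosine kinases, and signals pass into both the receptor cell and the ephrin cell. Slits repel axons through Robo receptors, and netrins attract through Dcc or repel through Unc5 receptors. In the developing cortex these families are known for guiding callosal, corticofugal and thalamocortical axons and migrating interneurons, and several also act in progenitor zones.

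The 2 largest groups of Seh1 peaks inside guidance genes, in Ephb1 and Slit3, were filed under microRNA genes and not under those genes. Each peak was named after the closest start site. The microRNAs concerned and Mir218-1, a paralogue, are shown first, from RefSeq (GRCm38.p6, the assembly called mm10), with the seed (bases 2 to 8) in capitals. Mir218-2 lies within Slit3 (chr11:35616816-35616925, + strand), its paralogue Mir218-1 within Slit2 (chr5:48223942-48224051, + strand) and Mir7243 within Ephb1 (chr9:102304924-102304975, - strand).
mmu-miR-218-5p: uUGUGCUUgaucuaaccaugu
mmu-miR-218-1-3p: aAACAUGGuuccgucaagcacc
mmu-miR-218-2-3p: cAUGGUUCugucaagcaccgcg
mmu-miR-7243-5p: uGCUGUCAgcuguucugagu
mmu-miR-7243-3p: uCAGAACAgcugacagcagu
The mature 218-5p sequence is the same from both Slit genes, whereas the 3p arms have different seeds.
Mir218-2 was given 10 Seh1 peaks and 0 IgG peaks, and all 10 lay inside Slit3. Mir218-1 was given no peak in either list. Mir7243 was given 11 Seh1 peaks and 1 IgG peak, all inside Ephb1.

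Of the 72 guidance genes, 36 were given at least 1 Seh1 peak by nearest start site (50.0%, 38.0 to 62.0), beside 31.9% of all 21779 protein-coding genes. In the IgG list the count was 24 of 72 (33.3%, 22.7 to 45.4), beside 11.3%. Both lists named 20 of the 72 (27.8%, 17.9 to 39.6; 6.42% of all genes), 16 were named for Seh1 alone and 4 for IgG alone (Epha3, Epha6, Robo2 and Sema5a). The remaining 32 were named in neither. They were Epha2, Epha8, Epha10, Ephb4 and Ephb6 among the Eph receptors, Efna2, Efna3, Efna4 and Efnb3 among the ephrins, and Robo3, Unc5a, Ntn3, Ntn5 and Nrp1. The plexins without a named peak were Plxna3, Plxnb1, Plxnb2, Plxnb3 and Plxnd1. The semaphorins were Sema3b, Sema3e, Sema3f, Sema4a, Sema4b, Sema4c, Sema4d, Sema4f, Sema4g, Sema6a, Sema6b, Sema6c and Sema7a.

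Gene length moved with these shares. Of the 72 genes, 32 were in the longest 10% of protein-coding genes (at least 108877 bp). In that length class 25 of 32 were given a Seh1 peak (78.1%, 60.0 to 90.7), beside 63.2% of all genes of the class, and among the 40 shorter guidance genes 11 were (27.5%, 14.6 to 43.9), beside 28.4%. Both Seh1 intervals include the share over all genes of the same length class. For IgG, 22 of the 32 long guidance genes were given a peak (68.8%, 50.0 to 83.9), beside 33.0%, and 2 of the 40 shorter ones (5.00%, 0.611 to 16.9), beside 8.94%. The IgG share of the long guidance genes was thus above that of long genes at large by more than counting error, while the Seh1 share was not. The longest class spanned 108877 to 2390387 bp, and gene length within a class was not matched. The 2 shorter genes with an IgG peak were Ephb3 and Efnb2.

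**Figure D1:**
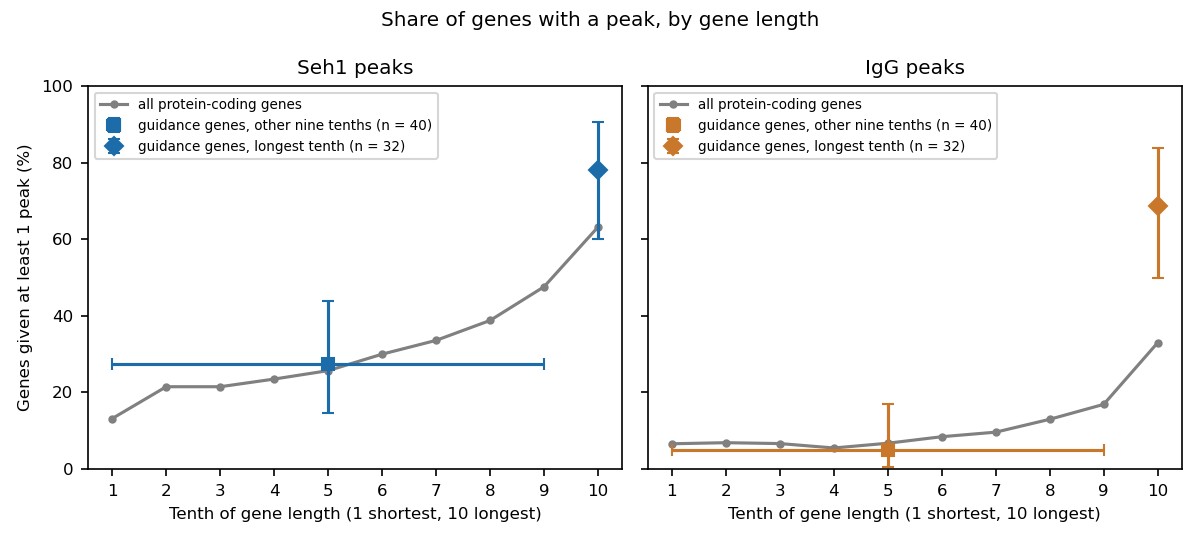
Share of protein-coding genes given at least 1 peak (vertical axis, %) in 10 equal classes of gene length (horizontal axis, shortest to longest). Grey points are all protein-coding genes, the square is the 40 guidance genes outside the longest class (its horizontal bar spans the classes pooled) and the diamond the 32 in it, with 95% exact intervals. The interval of the Seh1 diamond (78.1%) includes the grey point of its class (63.2%). The Seh1 square (27.5%) is a pooled value, beside 28.4% of all genes in the pooled classes (not drawn). The IgG diamond (68.8%) sits above the grey point (33.0%).

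Counting peaks whose centre lay inside the gene gave another picture of the same lists. A Seh1 peak lay inside 23 of the 72 genes (31.9%, 21.4 to 44.0; 19.5% of all genes) and inside 21 of the 32 long ones (65.6%, 46.8 to 81.4; 65.9% of all long genes). An IgG peak lay inside 13 of the 72 (18.1%, 9.98 to 28.9; 6.26% of all genes), each of the 13 being long (40.6% of 32, 23.7 to 59.4; 31.5%). By this count the long guidance genes were within counting error of other long genes in both libraries. Per megabase of gene, guidance genes held 4.44 Seh1 peaks and 2.18 IgG peaks, beside 6.11 and 1.91 in all long genes. Ligand genes held 4.95 Seh1 and 1.44 IgG peaks per Mb and receptor genes 4.15 and 2.58. Ephb1 and Slit3 held 21 of the 61 Seh1 peaks inside guidance genes, and without those genes the Seh1 density was 3.14 per Mb and the IgG density 2.28.

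**Figure D2:**
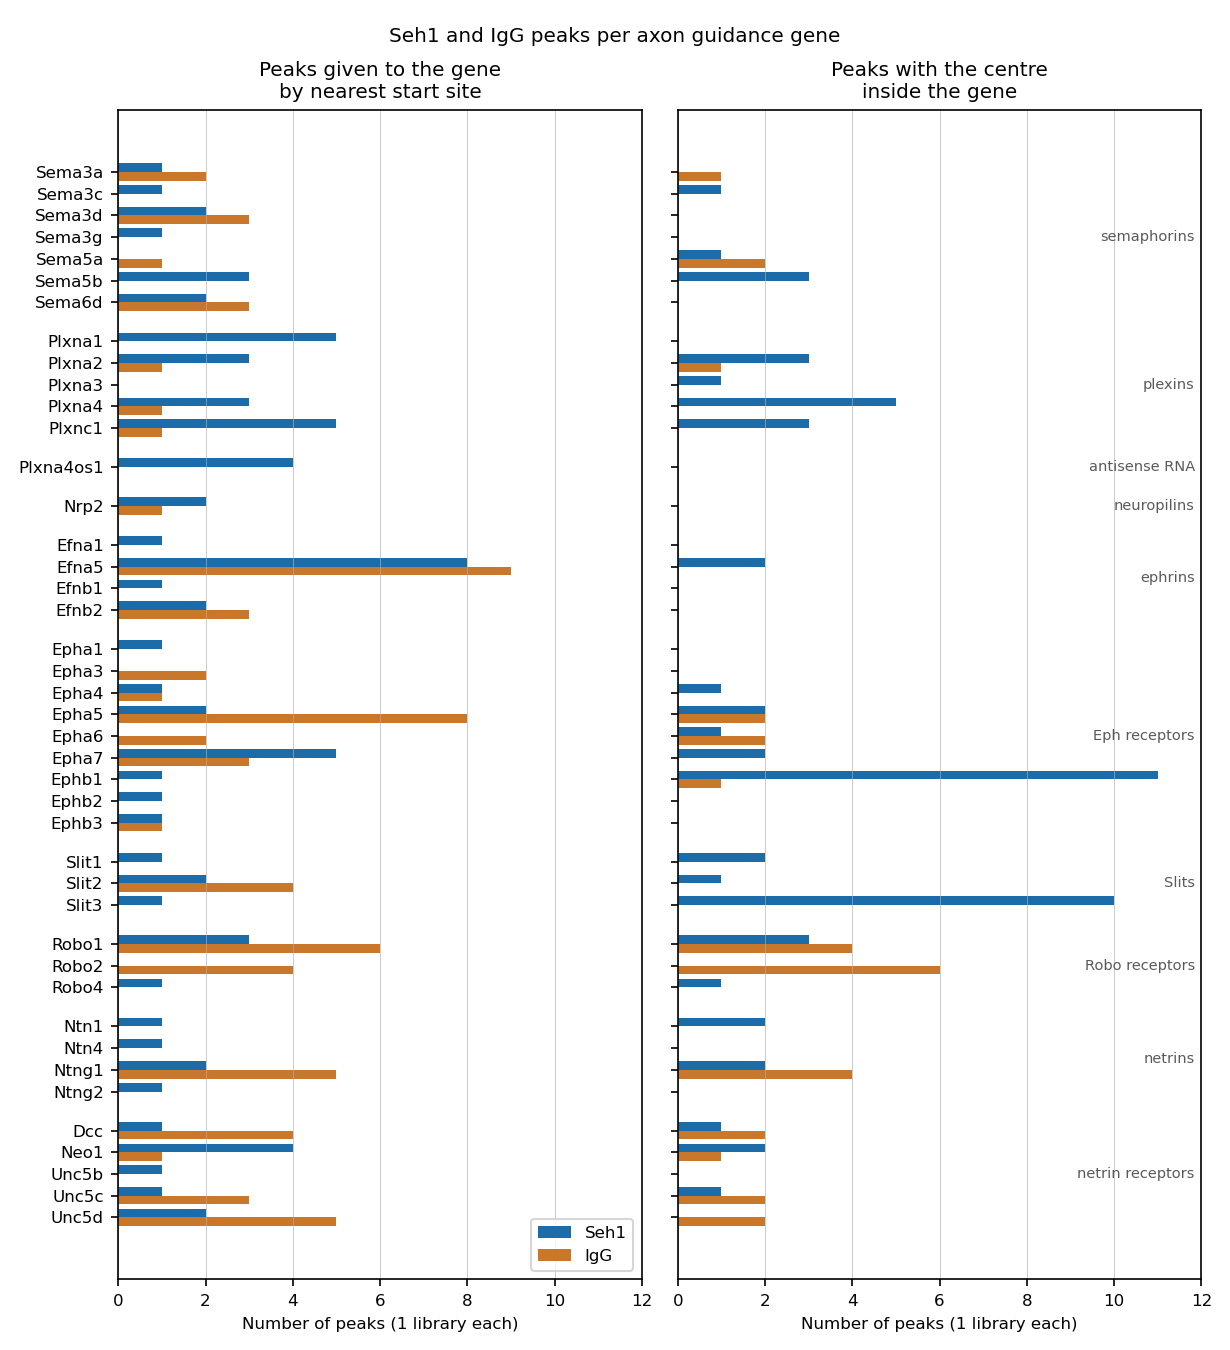
Number of Seh1 (blue) and IgG (orange) peaks for each guidance gene with at least 1 peak, from 1 library each. The left panel counts peaks given to the gene by nearest start site, where Efna5 has the most (8 Seh1, 9 IgG). The right panel counts peaks with the centre inside the gene, where Ephb1 (11 Seh1, 1 IgG) and Slit3 (10 Seh1, 0 IgG) have the most.

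The Eph receptors are receptor tyrosine kinases for the ephrins, and 7 of 14 were given a Seh1 peak and 6 of 14 an IgG peak. Family counts here and below stand beside 31.9% (Seh1) and 11.3% (IgG) of all protein-coding genes. In the longest class these shares were 63.2% and 33.0%. Ephb1, a receptor for the transmembrane B ephrins, was given 1 Seh1 peak, 65.3 kb upstream, and 0 IgG peaks. Inside its 433 kb (chr9:101922128-102354693, - strand) lay 11 further Seh1 peaks and 1 IgG peak, and the list files all of these under Mir7243. That is 25.4 Seh1 peaks per Mb, above 95.7% of the 2427 genes of at least 100 kb, whose median was 5.24 per Mb. Ephb1 was the densest of the guidance genes of at least 100 kb, so this rank is that of a gene picked from many. Guidance genes as a set held 4.44 Seh1 peaks per Mb, beside 6.11 in all long genes. Of the 11 peaks in Ephb1, 5 lay in intron 3 over 96.9 kb. The peak closest to the 5′ end of Ephb1 lay 101 kb into the gene and the farthest 398 kb. Peaks in Ephb1 were 243 to 395 bp wide, and 1 of the 11 had its centre in an annotated repeat.

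Epha7, a receptor of the A class expressed in cortical progenitors and known for its part in cortical mapping, was given 5 Seh1 and 3 IgG peaks. The Seh1 peaks lay 148, 121 and 46.8 kb upstream of its start and 58.7 and 116 kb downstream. Those 2 downstream peaks were inside the gene, and no IgG peak was. The IgG peaks lay 636, 453 and 70.1 kb upstream, so the libraries overlapped in range only upstream of the gene. Epha5, an A-class receptor of ephrin-A5, had the opposite balance, with 2 Seh1 and 8 IgG peaks. Both Seh1 peaks were in introns (chr5:84233625-84233882 in intron 3 and chr5:84333185-84333427 in intron 2). Of the 8 IgG peaks, 2 were in intron 3 and 6 were intergenic, 108 to 752 kb upstream. Epha4, which binds ephrins of both classes, was given 1 peak in each library (194 kb upstream for Seh1, 221 kb for IgG), and 1 more Seh1 peak lay in its coding region under the name Mir6352.

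Epha3 and Epha6 were named for IgG alone, with 2 intergenic peaks each. Epha6 did hold 1 Seh1 peak and 2 IgG peaks in its introns, filed under Arl6. Ephb2 and Ephb3, receptors for B ephrins, and Epha1 were each given 1 Seh1 peak within 10 kb of a start site, at 9.29, 6.33 and 8.68 kb upstream. Ephb3 also had an IgG peak 17.7 kb upstream, 11023 bp from its Seh1 peak.

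Among the ephrins, the membrane-anchored ligands of the Eph receptors, 4 of 8 were given a Seh1 peak and 2 an IgG peak. Efna5 (ephrin-A5, a GPI-anchored ligand known for topographic mapping of thalamocortical and retinal axons) was given the most peaks of any guidance gene, 8 for Seh1 and 9 for IgG. Only 2 of the 17 lay inside its 278 kb, both from Seh1 and both in intron 1 (chr17:62781556-62781798 and chr17:62873235-62873477, the latter 7.96 kb from the start). The other Seh1 peaks lay from 152 kb upstream to 1742 kb downstream of the start, and the IgG peaks from 25.0 kb upstream to 1533 kb downstream. The widest IgG peak given to a guidance gene was here (607 bp, chr17:61348191-61348797, wider than 97.4% of the list), as was a Seh1 peak of 476 bp (chr17:62307359-62307834, wider than 96.3%). Efnb2, a transmembrane ephrin, was given 2 Seh1 peaks at 796 and 1021 kb and 3 IgG peaks at 760, 1244 and 1614 kb, all downstream of its start, and none lay inside the gene. Efnb1, also transmembrane, was given 1 Seh1 peak of 425 bp (chrX:99185247-99185671, 49.4 kb downstream), and Efna1 1 Seh1 peak 14.8 kb upstream. Neither was named for IgG.

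**Figure D3:**
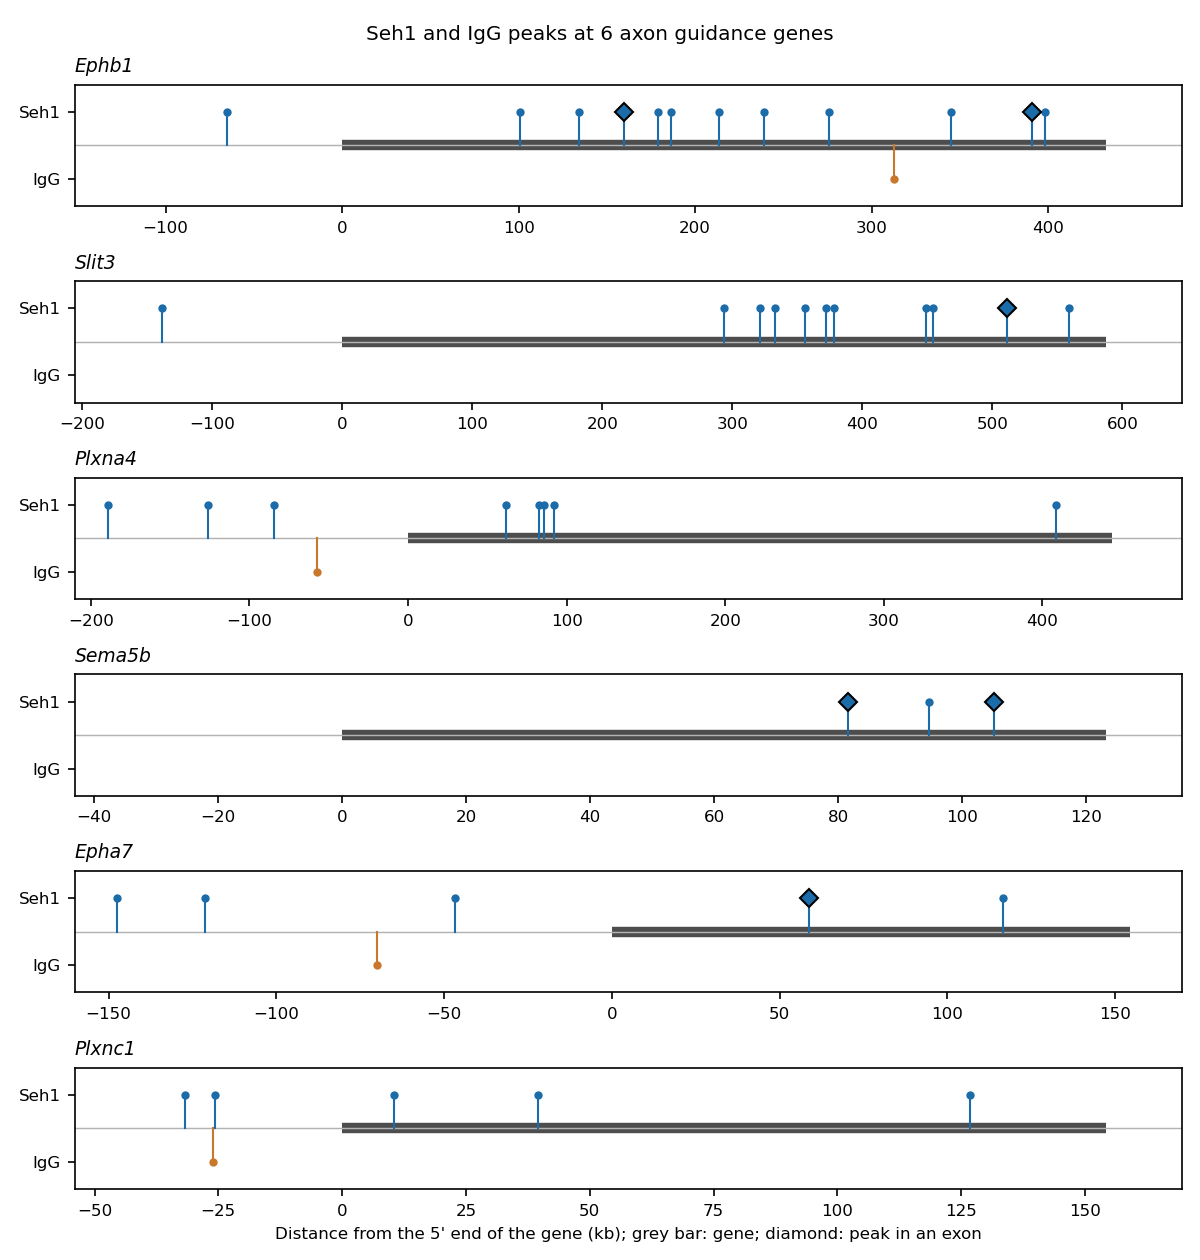
Peaks given to or inside guidance genes along Ephb1, Slit3, Plxna4, Sema5b, Epha7 and Plxnc1, by distance from the 5′ end of the gene (kb, horizontal axis). Grey bars are the genes, blue markers above the line are Seh1 peaks, orange markers below it are IgG peaks, and diamonds are exon peaks. Ephb1 (11 Seh1, 1 IgG) and Slit3 (10 Seh1, 0 IgG) are filled mostly by Seh1 peaks at 101 kb or more from the 5′ end.

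Slits are secreted repellents, and all 3 were given a Seh1 peak, with 1 of 3 given an IgG peak. All 3 were in the longest class, where 63.2% and 33.0% of genes were given a peak. Inside the 3 genes (149, 326 and 587 kb) lay 13 Seh1 peaks, 10 of them in Slit3, and 0 IgG peaks. All long genes held 6.11 Seh1 and 1.91 IgG peaks per Mb. Slit3 was itself given 1 Seh1 peak, 138 kb upstream, and 0 IgG peaks. Its 587 kb (chr11:35121456-35708507, + strand) held 10 further Seh1 peaks, 17.0 per Mb, above 87.8% of genes of at least 100 kb. As for Ephb1, this is the rank of a gene picked from many. Of the 10 peaks, 6 lay in intron 4 over 85.0 kb and the rest in introns 7, 8 and 29 and in exon 19. They were 293 to 559 kb from the 5′ end of Slit3 and 16.0 to 202 kb from the start of Mir218-2, under whose name they are filed. Slit1 held 2 Seh1 peaks, of which the one in intron 1 (448 bp, chr19:41732536-41732983, wider than 94.8% of the list, 11.1 kb from the start) carries its name and the other is filed under Mir8091. Slit2 was given 2 Seh1 peaks at 827 and 1002 kb upstream and 4 IgG peaks at 70.3, 97.8, 250 and 960 kb upstream. No IgG peak lay inside it, and the 1 Seh1 peak inside it was filed under Pacrgl.

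Robo receptors are the single-pass receptors of the Slits. Of 4 genes, 2 were given a Seh1 peak and 2 an IgG peak. Robo2, at 1555 kb the longest of the guidance genes, held 0 Seh1 and 6 IgG peaks, of which 4 carry its name and 2 are filed under Mir691. Robo1 (1020 kb) held 3 Seh1 and 4 IgG peaks inside it. By nearest start site it was given 3 Seh1 peaks (66.1, 306 and 691 kb downstream) and 6 IgG peaks, from 202 kb upstream to 725 kb downstream, so the Seh1 peaks fell within the range of the IgG peaks. Of the peaks inside Robo1, 1 Seh1 and 2 IgG peaks are classed as intergenic in the deposited annotation. It measures those IgG peaks from a later Robo1 start than the RefSeq 5′ end, and it files that Seh1 peak under 8030451O07Rik. Robo4, a Robo of vascular endothelium, is 12.1 kb long and had 1 Seh1 peak, in exon 6, and 0 IgG peaks.

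For the netrins, 4 of 6 were given a Seh1 peak and 1 of 6 an IgG peak. Ntn1, the secreted netrin that attracts commissural axons, held 2 Seh1 peaks in introns 2 and 5 and 0 IgG peaks, and the intron 5 peak is filed under Mir6406. Ntn4, a netrin of basement membranes, was given 1 Seh1 peak 5.60 kb upstream, in a B4 SINE. Ntng1 and Ntng2 encode netrin-Gs, which are tethered to the membrane and bind partners of the Lrrc4 family and not Dcc. Ntng1 was given 2 Seh1 peaks, both in intron 3, and 5 IgG peaks, 4 of them in introns. Ntng2 was given 1 Seh1 peak, 56.5 kb downstream.

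Of the netrin receptors, 5 of 6 were given a Seh1 peak and 4 of 6 an IgG peak. Dcc, the attractive netrin receptor, spans 1098 kb and was given 1 Seh1 peak, in exon 3, and 4 IgG peaks. Of those IgG peaks 2 were in introns and 1, 534 bp wide, lay 4.85 kb upstream of the start and was the only IgG peak within 10 kb of a guidance gene start by the deposited distances. Neo1 (neogenin, a receptor for netrins and repulsive guidance molecules) was given 4 Seh1 peaks, 1 in intron 2 and 3 upstream at 54.9, 114 and 117 kb, and 1 IgG peak in intron 2. The intron 2 peaks of the 2 libraries lay 1225 bp apart (chr9:58989800-58990042 for Seh1 and chr9:58988238-58988574 for IgG). The repulsive receptors Unc5c and Unc5d were given more IgG than Seh1 peaks (3 and 5 against 1 and 2), with 2 IgG peaks inside each. The Unc5c Seh1 peak was in intron 1 (31.8 kb), and those of Unc5d lay 39.4 and 105 kb upstream. Unc5b was given 1 Seh1 peak 16.2 kb upstream and none for IgG.

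Semaphorins are secreted or membrane-bound cues, repellent for most axons studied. Seh1 peaks were given to 6 of 20 and IgG peaks to 4 of 20, beside 31.9% and 11.3% of all protein-coding genes. Sema5b, a transmembrane semaphorin with thrombospondin repeats, was given 3 Seh1 and 0 IgG peaks, and all 3 lay inside its 123 kb (24.4 per Mb, above 95.3% of genes of at least 100 kb). This rank rests on 3 peaks and, as for Ephb1, is that of a gene picked from many. Sema5a, a relative of Sema5b, held 1 Seh1 and 2 IgG peaks, of which 1 IgG peak carries its name. The secreted class was seen at 4 genes for Seh1. Sema3a, a repellent that also orients cortical dendrites, was given 1 Seh1 peak (502 kb upstream) and 2 IgG peaks, the nearest pair 1787 bp apart. The other IgG peak lay 2.05 kb inside the RefSeq 5′ end of Sema3a, although the deposited annotation measures it from a later start, 270 kb away. Sema3c held 1 Seh1 peak in intron 11, within an RLTR10 retroviral repeat, Sema3d was given 2 Seh1 and 3 IgG peaks outside the gene, and Sema3g 1 Seh1 peak 3.77 kb upstream. Sema6d, a transmembrane semaphorin, was given 2 Seh1 and 3 IgG peaks, none inside its 578 kb.

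Plexins, the signalling receptors of the semaphorins, were given 16 Seh1 peaks at 4 of 9 genes and 3 IgG peaks at 3 genes. Inside plexin genes lay 12 Seh1 peaks and 1 IgG peak. The Seh1 list as a whole is longer (16113 against 5314 peaks). Plxna1 was given 5 Seh1 and 0 IgG peaks, all upstream, at 13.9, 15.9, 29.2, 56.7 and 79.6 kb. The 3 farthest lay in introns of the neighbouring gene Chchd6. Plxnc1, a receptor of Sema7a, was given 5 Seh1 peaks and 1 IgG peak. Of the Seh1 peaks 3 were inside the gene, in introns 1, 4 and 21, and the one in intron 1 was 476 bp wide (chr10:94934302-94934777). Upstream of Plxnc1 lay the closest pair of the 2 libraries near any guidance gene, a Seh1 peak at chr10:94970476-94970718 and an IgG peak at chr10:94971014-94971298, 295 bp apart.

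Plxna2 was given 3 Seh1 peaks and 1 IgG peak and held 3 Seh1 peaks and 1 IgG peak inside it, with the IgG peak in intron 1. Plxna4, a receptor for secreted semaphorins together with neuropilins, was given 3 Seh1 peaks at 84.3, 126 and 189 kb upstream and 1 IgG peak at 57.1 kb upstream. Inside it lay 5 Seh1 and 0 IgG peaks. Of these 5, 4 are filed under Plxna4os1 and lie in introns 1 to 3 of Plxna4 within 30.4 kb (chr6:32496169-32526592), and none lies in Plxna4os1 itself. They include the widest Seh1 peak given to a guidance gene, 521 bp at chr6:32526072-32526592, wider than 97.7% of the list. Nrp2, a neuropilin, was given 2 Seh1 peaks and 1 IgG peak upstream, 1 of each in introns of the neighbouring gene Pard3b.

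Seh1 peaks in coding exons were found at 11 of the 72 guidance genes (15.3%, 7.88 to 25.7), beside 3.67% of all protein-coding genes. IgG exon peaks were found at 0 of 72, which allows a share of up to 4.17%, beside 0.248%. Among the 32 long genes the counts were 10 for Seh1 (31.2%, 16.1 to 50.0; 9.83% of all long genes) and 0 for IgG (up to 9.38%; 0.367%). Both Seh1 shares lay above their background by more than counting error. The backgrounds were not matched for exon number or coding length. Of the 20 adhesion co-receptors counted below, Ptprd, Tenm2, Tenm3 and Tenm4 also had a Seh1 exon peak, and the others had none. The trait was thus not limited to guidance genes. For Seh1 peaks anywhere inside the long genes the share was level with the background (65.6% beside 65.9%, above). Of the 61 Seh1 peaks inside guidance genes, 13 were classed as exon (21.3%, 11.9 to 33.7), beside 12.1% of the peaks inside all protein-coding genes and 7.02% inside all long genes. That interval includes the first of these shares and not the second. The IgG count was 0 of 30, which allows up to 10.0%, beside 2.96% and 0.801%, so a share like that of other genes could not be told from 0 at this number of peaks. The counts of 11 genes and 13 peaks rest on 1 library, and depth, which could differ between the libraries, is unknown.

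**Figure D4:**
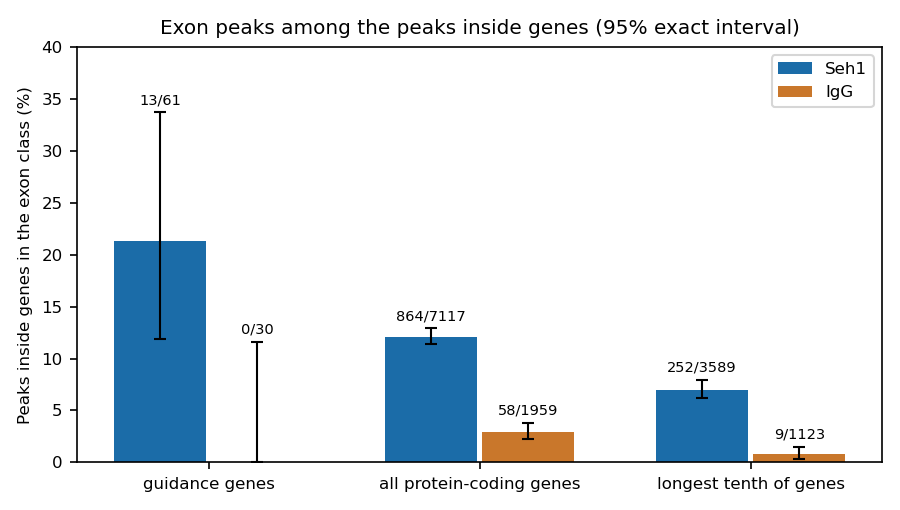
Share of the peaks inside genes that were classed as exon (vertical axis, %) for guidance genes, all protein-coding genes and the longest 10% of genes, with 95% exact intervals and the counts above the bars. The Seh1 bar of guidance genes (13 of 61) is above both other Seh1 bars, its interval reaches down to 11.9%, and the IgG bar is at 0 of 30.

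Exon numbers are those of the RefSeq transcript named in the deposited annotation. Among the ligands, Sema5b had peaks in exon 2 of 22 (chr16:35622548-35622969, 422 bp) and exon 7 of 22 (chr16:35646153-35646515, 363 bp), 81.4 and 105 kb from its start. Slit3 had one in exon 19 of 36 (chr11:35632653-35632918, 266 bp). The Slit2 peak lay in exon 37 of 39 (chr5:48302289-48302538, 250 bp), and the Sema5a peak in exon 22 of 23 (chr15:32686580-32686834, 255 bp, filed under Gm41289). These peaks were spread from the second exon to the last exons of their genes.

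Among the Eph receptors, Ephb1 had peaks in exon 3 of 15 (chr9:102195064-102195312, 249 bp) and exon 11 of 15 (chr9:101963915-101964205, 291 bp). Epha4 had one in exon 13 of 18 (chr1:77382893-77383135, 243 bp, the smallest width in the list) and Epha7 one in exon 5 of 10 (chr4:28871663-28871989, 327 bp, 58.7 kb from the start). Ephb1 and Sema5b were 2 of the 53 protein-coding genes (0.243%) with more than 1 Seh1 exon peak. The other receptors were Plxna2 in exon 29 of 32 (chr1:194807358-194807651, 294 bp, filed under Mir3962), Neo1 in exon 26 of 29 (chr9:58884399-58884650, 252 bp, filed under Hcn4) and Robo4 in exon 6 of 18 (chr9:37404234-37404506, 273 bp, 2.40 kb from the start). The Dcc peak was in exon 3 of 29, 286 bp wide and 525 kb from the start. A 14th peak fell in the 3′ UTR of Plxna3, a receptor gene with no peak of its own name (chrX:74343558-74343809, 252 bp, filed under Lage3). Robo4 excepted, none of these exon peaks lay within 10 kb of the start of the gene it was in.

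Of the 61 Seh1 peaks inside guidance genes, 36 (59.0%, 45.7 to 71.4) were filed under another gene, beside 42.4% inside all long genes and 34.6% inside all protein-coding genes. For IgG the count was 6 of 30 (20.0%, 7.71 to 38.6), beside 38.1% and 32.7%. MicroRNA names account for 25 of the 36 (41.0% of the 61, beside 4.88% and 3.72%), 21 of them in Ephb1 and Slit3 and 1 each in Epha4, Ntn1, Slit1 and Plxna2. A further 4 of the 36 carry the name Plxna4os1. Without Ephb1 and Slit3, which were singled out after their values were seen, 15 of 40 were filed under another gene (37.5%, 22.7 to 54.2), within counting error of all long genes.

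By median, the peaks given to the 41 genes lay farther from start sites than those of the whole lists, which were not matched for gene length. Efna5 alone was given 8 of the 78 Seh1 and 9 of the 74 IgG peaks. The median distance of the 78 Seh1 peaks was 84.2 kb (2.40 to 1742 kb; 37.8 kb in the whole list) and of the 74 IgG peaks 215 kb (4.85 to 1614 kb; 57.4 kb). No peak of either library lay within 1 kb of a start, beside 309 of all 16113 Seh1 peaks and 38 of all 5314 IgG peaks. At such low shares, 0 of 78 and 0 of 74 peaks could not show a difference from the lists. Within 10 kb there were 9 Seh1 peaks (11.5%; 18.1% of the list) and 1 IgG peak (1.35%; 13.4%), while 36 Seh1 peaks (46.2%; 25.1%) and 53 IgG peaks (71.6%; 36.9%) lay beyond 100 kb. By gene and by the deposited start sites, 7 of the 72 had a Seh1 peak within 10 kb (9.72%, 4.0 to 19.0; 9.68% of all genes) and 1 an IgG peak (1.39%, 0.0352 to 7.5; 2.36%), both within counting error of the background. The 7 were Robo4, Sema3g, Ntn4, Ephb3, Efna5, Epha1 and Ephb2, and Plxna4os1 had 2 peaks of its own at 5.25 and 8.38 kb upstream. The 78 Seh1 peaks are 0.484% of their list (0.383 to 0.604) and the 74 IgG peaks 1.39% of theirs (1.09 to 1.75). For peaks inside guidance genes the shares were closer, 0.379% (0.290 to 0.486) and 0.565% (0.381 to 0.805).

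**Figure D5:**
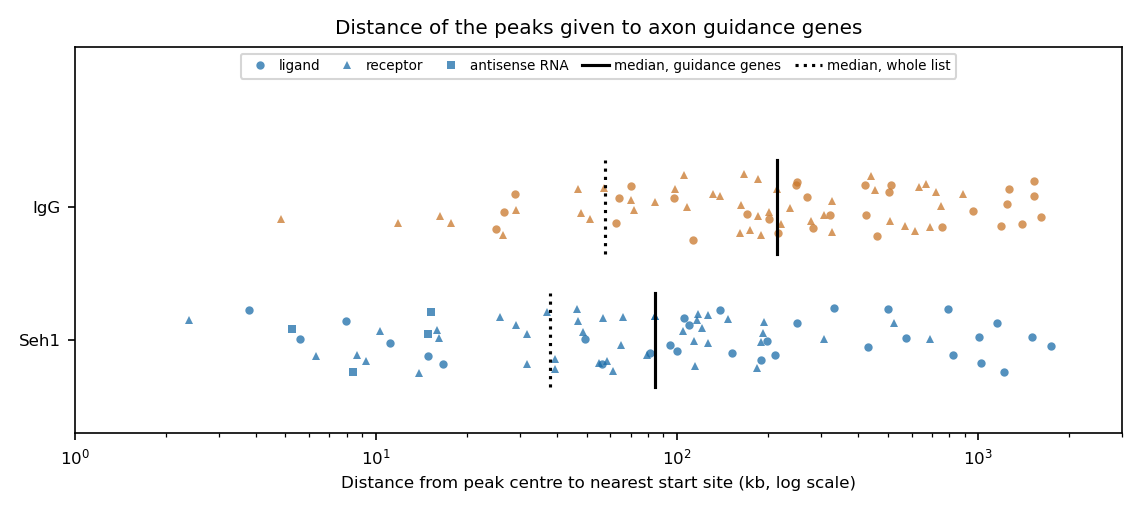
Distance of each peak given to the 41 guidance genes from the nearest start site (kb, log axis) in the Seh1 and IgG lists, with ligands, receptors and the antisense RNA gene marked by shape and vertical jitter for display. Solid lines are the medians of these peaks (84.2 kb for Seh1, 215 kb for IgG) and dotted lines those of the whole lists (37.8 and 57.4 kb).

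The promoter windows in RefSeq, 250 bases before to 50 after a start, were examined for peaks at 62 guidance genes with 78 windows. None overlapped a Seh1 or an IgG peak, and 0 of 78 allows a share of up to 3.85%. Of all 32851 windows, 197 (0.60%) overlapped a Seh1 peak and 17 (0.0517%) an IgG peak, so the 78 windows could not show a difference from the background. Ephb1 and Slit3 held the most Seh1 peaks inside a guidance gene, and Ephb1 and Sema5b more than 1 Seh1 exon peak each. The windows of Ephb1, Slit3 and Sema5b are printed because the distances above are counted from them. Each CG dinucleotide is in capitals (a motif that reads the same on both strands). The positions are Ephb1 (chr9:102354644-102354943, - strand), Slit3 (chr11:35121206-35121505, + strand) and Sema5b (chr16:35541112-35541411, + strand), from RefSeq on GRCm38.p6.
Ephb1: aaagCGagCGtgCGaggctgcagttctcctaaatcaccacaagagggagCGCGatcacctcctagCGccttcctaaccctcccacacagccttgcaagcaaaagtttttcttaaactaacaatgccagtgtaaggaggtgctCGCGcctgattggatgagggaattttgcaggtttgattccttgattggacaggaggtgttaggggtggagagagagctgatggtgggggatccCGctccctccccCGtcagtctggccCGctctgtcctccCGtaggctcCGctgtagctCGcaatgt
Slit3: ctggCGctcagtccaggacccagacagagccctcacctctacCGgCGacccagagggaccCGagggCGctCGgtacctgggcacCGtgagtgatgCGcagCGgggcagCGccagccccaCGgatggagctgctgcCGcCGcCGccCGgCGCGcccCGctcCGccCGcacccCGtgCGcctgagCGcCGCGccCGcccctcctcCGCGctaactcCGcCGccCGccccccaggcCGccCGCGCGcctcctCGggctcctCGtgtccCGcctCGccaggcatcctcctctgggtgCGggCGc
Sema5b: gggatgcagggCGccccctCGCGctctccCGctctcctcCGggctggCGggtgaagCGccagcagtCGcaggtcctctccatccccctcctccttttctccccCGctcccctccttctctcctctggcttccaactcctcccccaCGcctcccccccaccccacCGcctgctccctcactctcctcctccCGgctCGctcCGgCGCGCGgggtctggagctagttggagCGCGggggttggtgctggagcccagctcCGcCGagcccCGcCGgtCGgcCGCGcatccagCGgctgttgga
They hold 14, 41 and 27 CG, and 36.3%, 3.46% and 15.5% of all promoter windows hold as many or more. A peak sequence is not printed because no genome of this build was used here.

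By annotation class, the Seh1 peaks given to the 41 genes were 45 intergenic (57.7%), 28 intronic (35.9%, 25.3 to 47.6; 36.8% of the list) and 5 exonic (6.41%; 5.37%). The IgG peaks were 53 intergenic (71.6%), 21 intronic (28.4%) and 0 exonic (1.09% of the list). No peak in either group was classed as promoter, 5′ UTR, 3′ UTR or transcription end. In the whole lists these classes held 0.881%, 0.0993%, 0.919% and 1.03% of Seh1 peaks. For IgG they held 0.452%, 0.0565%, 0.960% and 0.979%. A count of 0 allows up to 3.85% of the 78 and 4.05% of the 74 peaks per class, so no difference from the lists could be shown. The centre lay in an annotated repeat for 35 of 78 Seh1 peaks (44.9%, 33.6 to 56.6; 39.8% of the list) and 31 of 74 IgG peaks (41.9%, 30.5 to 53.9; 52.0%). LINE elements held 9 of the Seh1 peaks (11.5%; 10.6% of the list) and 15 of the IgG peaks (20.3%, 11.8 to 31.2; 31.8%), LTR elements 13 (16.7%; 17.0%) and 6 (8.11%; 9.58%). The LINE interval of the IgG peaks ended just below the share of their list. For IgG peaks inside guidance genes the LINE share was 6 of 30 (20.0%, 7.71 to 38.6), beside 21.5% inside all protein-coding genes.

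No Seh1 peak given to the 41 genes overlapped an IgG peak by at least 1 bp (0 of 78), beside 60 of all 16113 Seh1 peaks (0.372%). Within 10 kb of an IgG peak centre lay 5 of the 78, beside 4.17% of all Seh1 peaks. Besides Plxnc1 and Neo1, the closest were the intron 3 peaks of Epha5, 1354 bp apart. The share of peaks at the smallest width of its list was 28.2% for Seh1 (22 of 78; 27.2% of the list) and 40.5% for IgG (30 of 74; 38.0%).

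Other genes of the pathway were counted in 3 lists chosen by function. Of 30 other cues and their receptors, 18 were given a Seh1 peak (60.0%, 40.6 to 77.3) and 13 an IgG peak (43.3%, 25.5 to 62.6). Both shares were above those of all protein-coding genes (31.9% and 11.3%) by more than counting error. Only 6 of the 30 were in the longest class, of which 5 had a Seh1 and 2 an IgG peak, beside 63.2% and 33.0% of all long genes. With the peak centre inside the gene the counts were 11 of 30 for Seh1 (36.7%, 19.9 to 56.1; 19.5% of all genes) and 5 of 30 for IgG (16.7%, 5.64 to 34.7; 6.26%), the latter within counting error. Lrrc4c, the netrin-G1 ligand, was given 10 Seh1 and 9 IgG peaks, the chemokine gene Cxcl12 6 Seh1 peaks and the neurotrophin receptor gene Ntrk2 6. Of 20 adhesion co-receptors, 11 were given a Seh1 peak (55.0%, 31.5 to 76.9; 31.9% of all genes). An IgG peak was given to 12 (60.0%, 36.1 to 80.9; 11.3%). In the longest class were 16 of the 20, of which 11 had a Seh1 and 12 an IgG peak. These stand beside 63.2% and 33.0% of all long genes. The receptor phosphatase gene Ptprd was given 9 Seh1 peaks and the contactin gene Cntn5 6. Of 60 intracellular signalling genes, 31 were given a Seh1 peak (51.7%, 38.4 to 64.8; 31.9% of all genes). An IgG peak was given to 8 (13.3%, 5.94 to 24.6), within counting error of 11.3%. In the longest class were 30 of the 60, of which 18 had a Seh1 and 8 an IgG peak, beside 63.2% and 33.0% of all long genes.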

How the data were processed

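Peak lists of the Seh1 and the IgG library (1 library each) were analysed. Bowtie2 and HOMER are named without versions per the submitters' processing notes, which list the builds hg18 and hg38. Per the file headers, the peaks were annotated with HOMER annotatePeaks.pl on mm10, which was used here. The peak caller, its threshold, duplicate handling and depth were not given in the sources used here. For each peak the authors deposited a score, which is 0 throughout, and other columns for position, annotation class, nearest start site and gene. Repeat names are given only where the class is intron or intergenic. How a caller treats repeats and input sets which peaks exist, and this could not be checked.

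Gene spans, lengths and promoters came from RefSeq on GRCm38.p6, after removal of 394 genes listed within the first 3 Mb of a chromosome other than Y (taken as patch or unplaced coordinates), leaving 21779 protein-coding genes. Unc50 matches a name pattern but is no netrin receptor and was left out. A peak was counted inside a gene when its centre lay in the span. Distances to a start site are those deposited, and distances from a gene's 5′ end were computed from the RefSeq table. A start site lay over 1 kb off the gene for 246 Seh1 and 116 IgG peaks, 0 of them given to guidance genes. Shares have 95% exact binomial intervals (SciPy 1.17.1, pandas 2.3.3), and no test was run because each group has 1 library. The gene families, lists and named genes were chosen with earlier results of these data known. The genes described in full were those with exon peaks, the most peaks, the widest peaks or the closest Seh1 and IgG peaks. Ephb1 and Slit3 were singled out after their values were seen.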

Additional observations from a re-analysis of the deposited data

How the results depend on the processing

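For 17 counts or shares, 59 alternatives were run, and 47 left the value within 1.5 times that reported, or, for the intron share, within its interval. The counts of promoter windows and of genes by distance or position over all 72 genes were not rerun. With only peaks wider than the list's minimum width, IgG peaks given to guidance genes fell from 74 to 44 and those inside them from 30 to 19. With only peaks within 100 kb of a start, 42 of 78 Seh1 and 21 of 74 IgG peaks remained. With a peak required inside the gene, 22 of the 41 genes had a Seh1 peak in place of 37, and 13 an IgG peak in place of 24. A limit of 50 kb from the start gave 21 genes with a Seh1 peak in place of 8 at 10 kb. Counting peaks as shared when centres lay within 1 kb or 10 kb gave 1 and 5 Seh1 peaks in place of 0. Over all Seh1 peaks inside the 41 genes the intron share was 76.7% in place of 35.9%. These changes follow from how each alternative selects peaks. Leaving out 14 megabase bins dense in IgG peaks changed none of the values for which it was run. Those bins held none of the peaks given to or inside guidance genes. Leaving out peaks whose start site lay off the gene removed 0 peaks given to guidance genes. The overlap of 0 could not rise under stricter limits. Many of the 47 were thus fixed in advance, and their number is no measure of stability.

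Alternatives for the 72 genes, and the width and bin alternatives for the overlap with IgG peaks, were chosen after seeing the data. Without Ephb1 and Slit3, Seh1 peaks inside guidance genes fell from 61 to 40, exon peaks from 13 to 10, genes with an exon peak from 11 to 9 and peaks filed under another gene from 36 to 15. With only wider peaks there were 12 exon peaks at 10 genes. No paired analysis was possible because each group has 1 library, and no replicate could be left out. Depth and peak height are unknown, so a gene without a peak cannot be told from one under the caller's threshold, and list length cannot be told apart from depth.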
